A study of Mus musculus with 14 samples.

Results

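The genes described here are the mouse regulators of transcription in the Hox, Sox, Fox, Klf, Tbx, Gata, Runx and Id families. They were chosen by gene symbol alone: every numbered Hox, Sox, Klf, Tbx, Gata and Runx gene, the Foxa to Foxs genes, and Id1 to Id4. Foxa1, Foxm1, Tbx3, Gata3, Sox9 and Sox10 were left out. The array carried 247 probes for 136 such genes. A probe was tested when its detection p-value, which ranks it against negative control probes, was below 0.05 on at least 3 of the 14 arrays. By that rule 66 of the 136 genes were tested, of 11350 tested genes in all.

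RNA came from mammary cells of female FVB/NJ mice, either virgin or at day 12.5 of pregnancy, and the labels name no other genotype or treatment. Cells without CD45, CD31 and TER119 were sorted on CD29 and CD24, both positive for CD24: those with high CD29 include the mammary stem cells and are called MaSC-enriched, and those with low CD29 are called luminal. The 4 groups were virgin MaSC-enriched (3 arrays), pregnant MaSC-enriched (4 arrays), virgin luminal (3 arrays) and pregnant luminal (4 arrays). Mice were pooled, 3 pools of virgin and 4 of pregnant animals, so each array averages several mice, and the sort by surface markers leaves the MaSC-enriched population a mixture that includes myoepithelial cells.

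These families hold many of the factors that set and keep cell identity. Hox proteins bind DNA through a homeodomain and mark position along the body axis, Sox proteins bind through an HMG box, Fox proteins through a forkhead domain, and Klf and Gata proteins through zinc fingers. Id proteins are helix-loop-helix proteins without a DNA-binding region: they pair with E proteins and keep them off E-box sites in DNA. In the mammary gland, Id2 is needed for alveolar growth in pregnancy, Id4 is a factor of basal cells, Runx1 is a factor of basal and ductal cells, and mice lacking several group 9 Hox genes fail to form normal alveoli.

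Levels are quantile-normalised intensities on the log2 scale, and a difference is between group means on that scale, with its standard error (SE) from a limma fit to all 14 arrays. Adjusted p is Benjamini-Hochberg's, taken over the 20906 tested probes in each comparison, and a gene is said to have changed when its adjusted p was below 0.05. A level belongs to its own probe and is not set against that of another gene. Tests measure the spread between pools. The fit was repeated without each array and with other background correction, scaling, detection filter, weights, blocks or probe choice, 26 alternatives in all, and those that ended a factor's call are named beside it. In sorted samples, fewer cells of a type and less RNA per cell cannot be told apart.

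The share of probes detected ran from 34.84% to 42.31% over the 14 arrays. Of the 136 genes, tested or not, 46 to 65 were detected by a probe on each array. Virgin MaSC-enriched arrays were the least alike, with correlations of 0.9088 to 0.9415 among them against 0.9491 to 0.9902 within the other groups. Marker genes matched the labelled populations: the mean of 9 basal markers ran from 12.47 to 13.06 in MaSC-enriched and from 7.27 to 9.28 in luminal arrays, and that of 9 luminal markers from 8.77 to 9.75 and from 11.13 to 12.33. Of the 9 basal markers 4, Krt14, Acta2, Myh11 and Mylk, were also higher in luminal cells of pregnant than of virgin mice, and 4 of the 9 luminal markers were lower there. Of markers of other cells, Ptprc (CD45) and Kdr were detected on no array, but 4 other leukocyte markers (Cd3e, Csf1r, Lyz2 and Cd52), 7 other endothelial markers and 6 pericyte markers were. The mean of the 4 leukocyte markers was 5.84, 6.75 and 6.02 in virgin and 7.18, 7.14, 6.86 and 6.98 in pregnant MaSC-enriched arrays, without overlap, and Cd3e, of T cells, was called higher in pregnancy there (1.56, adjusted p = 0.023); their part in the pregnancy differences was not tested. Of 11 proliferation genes, 5 rose with pregnancy in MaSC-enriched and 10 in luminal cells, and 0 fell. Of 2 tested genes each, 1 adipocyte marker was higher and 1 Schwann cell marker lower in MaSC-enriched cells in both states, and 2 erythroid markers were lower there in virgin and 1 in pregnant mice. Of 8 fibroblast markers, 1 and 3 were higher in MaSC-enriched cells of virgin and pregnant mice.

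The proximal promoters of 4 factors that fell in luminal cells during pregnancy (Foxi1, Runx1, Klf4 and Id3) are shown because these genes are returned to below. Each window runs from 250 bases before to 50 after a RefSeq start site (RefSeq, mouse build GRCm38.p6), is written 5' to 3' on the gene's own strand, and has each E-box, the letters CANNTG, in capitals. This motif reads the same on both strands. Foxi1 (chr11:34208040-34208339, minus strand) held 4 E-boxes and Klf4 (chr4:55532426-55532725, minus strand) 2. Runx1 has 2 listed starts, with no E-box at the nearer one to the 3' end (chr16:92697280-92697579, minus strand) and 3 at the farther (chr16:92826025-92826324, minus strand). Id3 (chr4:136143572-136143871, plus strand) held none.
Foxi1: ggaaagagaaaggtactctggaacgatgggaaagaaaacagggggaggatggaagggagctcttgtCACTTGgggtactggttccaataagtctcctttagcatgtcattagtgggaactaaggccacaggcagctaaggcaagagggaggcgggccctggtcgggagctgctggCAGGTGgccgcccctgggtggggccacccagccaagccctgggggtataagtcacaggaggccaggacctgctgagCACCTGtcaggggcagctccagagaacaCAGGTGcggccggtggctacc
Klf4: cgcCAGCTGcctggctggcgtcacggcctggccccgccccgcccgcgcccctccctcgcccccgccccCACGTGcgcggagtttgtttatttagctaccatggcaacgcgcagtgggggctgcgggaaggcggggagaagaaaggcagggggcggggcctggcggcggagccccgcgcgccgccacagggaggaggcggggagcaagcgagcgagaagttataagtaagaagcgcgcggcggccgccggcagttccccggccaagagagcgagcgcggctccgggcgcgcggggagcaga
Runx1, downstream start: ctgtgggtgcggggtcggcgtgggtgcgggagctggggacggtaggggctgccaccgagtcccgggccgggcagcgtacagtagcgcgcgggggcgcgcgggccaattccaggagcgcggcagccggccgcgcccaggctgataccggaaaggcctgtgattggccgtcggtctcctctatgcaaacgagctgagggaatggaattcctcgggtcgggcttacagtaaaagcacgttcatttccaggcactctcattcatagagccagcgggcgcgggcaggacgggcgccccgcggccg
Runx1, upstream start: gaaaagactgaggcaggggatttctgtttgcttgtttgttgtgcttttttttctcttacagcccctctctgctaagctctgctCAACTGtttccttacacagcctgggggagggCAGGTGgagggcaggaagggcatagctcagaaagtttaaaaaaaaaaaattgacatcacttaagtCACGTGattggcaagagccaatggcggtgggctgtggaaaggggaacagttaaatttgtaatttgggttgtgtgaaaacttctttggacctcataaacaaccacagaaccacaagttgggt
Id3: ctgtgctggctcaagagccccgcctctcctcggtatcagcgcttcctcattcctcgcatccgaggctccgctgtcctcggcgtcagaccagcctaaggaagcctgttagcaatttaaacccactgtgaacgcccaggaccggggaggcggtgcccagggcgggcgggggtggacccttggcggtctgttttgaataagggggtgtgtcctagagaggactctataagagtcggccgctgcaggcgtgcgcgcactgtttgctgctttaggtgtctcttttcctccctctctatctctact

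RefSeq promoter windows were matched for 92 of the 136 genes, 111 windows in all. An E-box was present in 71.2% of these 111 windows, beside 72.3% of all 32851 windows of the same length. A match is a string of letters and not a shown binding site.

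Few of the 66 factors differed with pregnancy in MaSC-enriched cells and more did in luminal cells. In MaSC-enriched cells 1 fell and 0 rose by limma's adjusted p. Of all tested genes 5.14% were called in either direction there, 2.83% higher and 2.31% lower. At an unadjusted limma p below 0.05 there were 14 factors. The share of all genes at that threshold was not computed, so the 14 cannot be set against it. In luminal cells 6 rose and 9 fell, 15 of 66, beside 21.8% of all genes, 10.9% in each direction. Of the 9, Foxi1 passed the detection filter only through the 3 virgin luminal arrays and could be called there only as a fall. The arrays of virgin and pregnant mice did not overlap for 3 factors in MaSC-enriched cells and 17 in luminal cells, beside 16.5% and 33.8% of all genes. Median differences over the 66 were -0.08 in MaSC-enriched and 0.08 in luminal cells, against 0.03 and 0.05 over all genes. The shares called lie near or below those of all genes. Fox genes made up 5 of the 15 luminal calls, Sox genes 3, Id and Klf genes 2 each, and Hox, Gata and Runx genes 1 each.

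The populations differed in more factors than the reproductive states did. In virgin mice 17 factors were higher and 5 lower in MaSC-enriched than in luminal cells, with 32.1% of all genes called in either direction (15.5% higher, 16.6% lower). In pregnant mice 20 were higher and 8 lower, with 43.2% of all genes called (20.2% higher, 23% lower). Taken in either direction, the share of factors called lay near that of all genes in both states. The 2 populations' arrays stood apart for 20 and 28 factors, beside 37.7% and 50% of all genes. Median differences were 0.29 and 0.20, against -0.04 and -0.10 over all genes. The 2 states share no array in this comparison: 11 factors were higher in MaSC-enriched cells in both, 2 were lower in both, and Sox4 was called in opposite directions. The shares of all genes called in both states were not computed, so these counts cannot be set against them. The filter on detection bears on these counts, since Hoxa5, Hoxc9, Hoxd4, Sox11 and Tbx2 passed it only through MaSC-enriched arrays, Sox14 only through luminal arrays and Foxi1 only through the 3 virgin luminal arrays. Without these 7 genes, 14 of 59 were higher and 3 lower in virgin mice, and 17 higher and 7 lower in pregnant mice.

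**Figure D1:**
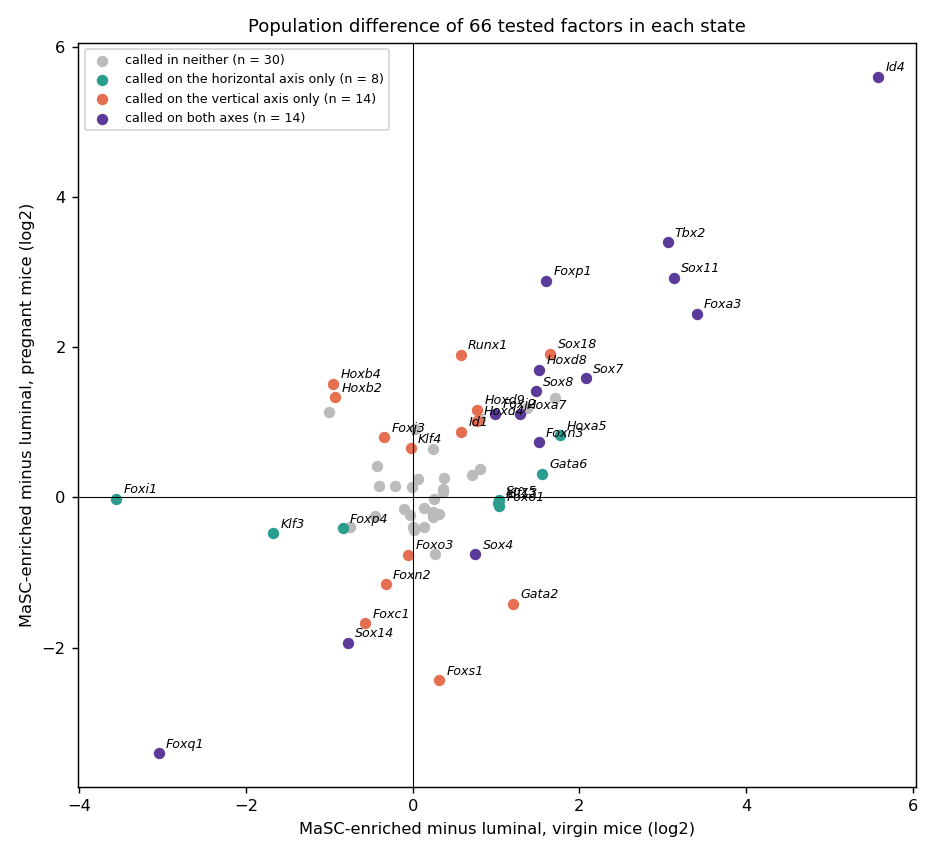
Difference between MaSC-enriched and luminal cells (log2) of the 66 tested factors in virgin mice (horizontal) and pregnant mice (vertical), coloured by where the adjusted p was below 0.05. Id4 lies at 5.59 and 5.61, Foxq1 at -3.04 and -3.40, and Sox4 is called on both axes with opposite signs.

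The pregnancy difference itself differed between the populations for 7 factors, 4 with a higher and 3 with a lower value in MaSC-enriched than in luminal cells, beside 8.76% of all genes (5.37% higher, 3.39% lower). The 4 were Foxi1, Hoxb2, Foxp1 and Foxj3, all of which fell in luminal cells. The 3 were Gata2, Sox4 and Sox14, all of which rose in luminal cells. None of the 7 was called in MaSC-enriched cells. The detection filter bears on these counts, since Sox14 passed it only through luminal arrays and Foxi1 only through virgin luminal arrays. The median of this difference was -0.19 over the 66 factors and -0.02 over all genes.

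**Figure D2:**
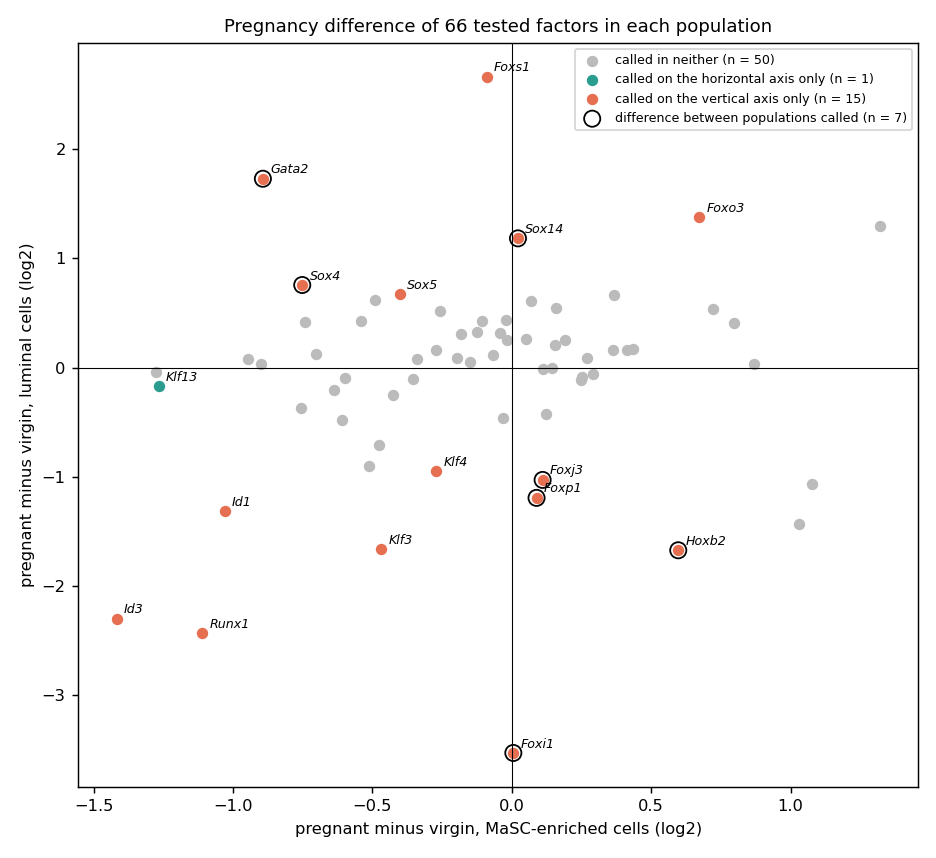
Difference between pregnant and virgin mice (log2) of the 66 tested factors in MaSC-enriched cells (horizontal) and luminal cells (vertical), coloured by where the adjusted p was below 0.05; circles mark the 7 factors whose difference itself was called between populations. Foxi1, at -3.53 on the vertical axis, is the lowest point.

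Id4 had the largest population difference of the 66 factors in both states. Its level was 11.58, 12.67 and 10.17 on virgin and 13.11, 12.71, 12.67 and 12.70 on pregnant MaSC-enriched arrays. On luminal arrays it was 6.77, 5.93 and 4.97 in virgin and 6.72, 6.84, 8.44 and 6.76 in pregnant mice, with the third virgin array not detected. Every MaSC-enriched array lay above every luminal array. The difference was 5.59 (SE 0.58, adjusted p = 2.73e-06) in virgin and 5.61 (SE 0.51, adjusted p = 4.09e-07) in pregnant mice, 48.0-fold and 48.8-fold. Leaving out virgin MaSC-enriched replicate 2 or 3 moved the virgin difference to 4.99 or 6.24. Pregnant luminal replicate 3, at 8.44, was the highest luminal array. The same array had the highest mean of 8 fibroblast markers in its group, 9.18 against 7.21 to 8.18. It was also the highest of its group for the 9 basal markers, 9.28 against 8.87 to 9.01, among them Trp63 (7.61, 7.32, 8.65 and 6.59) and Snai2 (5.85, 5.93, 7.24 and 6.31). The part of either in the Id4 level was not tested.

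Id1 and Id3 fell in luminal cells in pregnancy and Id2 did not pass the test. Id1 was at 9.32, 8.37 and 8.65 in virgin and 7.77, 7.43, 7.25 and 7.40 in pregnant luminal arrays, and at 9.38, 9.46 and 9.27 (virgin) and 7.90, 9.50, 8.21 and 7.75 (pregnant) in MaSC-enriched arrays. In luminal cells all 4 pregnant arrays lay below the 3 virgin arrays, whereas in MaSC-enriched cells pregnant replicate 2 lay above them and the other 3 below. The luminal difference of Id1 was -1.32, SE 0.35, adjusted p = 0.0152. The Id1 call was lost without virgin luminal replicate 1 (adjusted p = 0.094). In pregnant mice Id1 was higher in MaSC-enriched than luminal cells (0.88, adjusted p = 0.0439), a call lost without pregnant MaSC-enriched replicate 2 or 3, virgin luminal replicate 3 or pregnant luminal replicate 2, 3 or 4 (adjusted p = 0.0511 to 0.132), and with no background correction, no filter or replicate number as a block (adjusted p = 0.0536 to 0.0984).

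Id3 was at 8.98, 9.88 and 7.92 in virgin and 6.80, 6.32, 6.93 and 6.45 in pregnant luminal arrays, again with no overlap, and the difference was -2.30, SE 0.47, adjusted p = 0.00269, or 4.93-fold. In MaSC-enriched arrays Id3 was at 9.94, 8.71 and 8.21 in virgin and 7.09, 8.41, 7.71 and 6.94 in pregnant mice, which overlapped. The MaSC-enriched differences did not pass the test, at -1.03 for Id1 (adjusted p = 0.122) and -1.42 for Id3 (adjusted p = 0.112). The pregnancy differences of the populations were not distinguished either, with interaction values of 0.29 (95% interval -0.77 to 1.35) and 0.88 (-0.54 to 2.31). Id2 lay between 9.96 and 11.19 on all 14 arrays and was called in no comparison.

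Id1 and Id3 are textbook targets of BMP-Smad signalling, in which BMP ligands activate receptors that phosphorylate Smad1 and Smad5. Of 10 tested genes of this pathway, 4 fell and 0 rose in luminal cells in pregnancy, with a median of -0.60, beside 10.9% of all genes lower and a median of 0.05: the ligand gene Bmp4 (-1.35, adjusted p = 0.0192), the receptor gene Bmpr2 (-0.78, 0.0219), Smad1 (-0.75, 0.017) and Smad5 (-0.58, 0.041). In MaSC-enriched cells 2 fell and 0 rose, Bmp4 (-1.76, adjusted p = 0.0145) and Chrd (-1.19, 0.0144), which encodes a BMP antagonist, beside 2.31% of all genes lower. Between populations, 5 were higher and 1 lower in MaSC-enriched cells of virgin mice and 7 higher and 0 lower in pregnant mice, beside 15.5% and 20.2% of all genes higher. Bmp7 had the largest difference, 5.29 and 4.90. Of the 18 genes of this pathway list with a probe, 10 were tested. The part of BMP signalling in the Id1 and Id3 differences was not tested.

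Of 11 tested E proteins and other helix-loop-helix genes, 1 fell in luminal cells in pregnancy, the Notch target Hey1 (-5.28, SE 0.49, adjusted p = 2.42e-06). The E protein gene Tcf4 was higher in MaSC-enriched cells in both states (1.25 and 1.66), Tcf12 was lower there in virgin mice (-1.001) and Tcf3 in pregnant mice (-0.89). Hes1 and Hes6, which encode repressors, were lower in MaSC-enriched cells in both states, at -1.23 and -1.18 for Hes1 and -1.29 and -1.72 for Hes6.

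**Figure D3:**
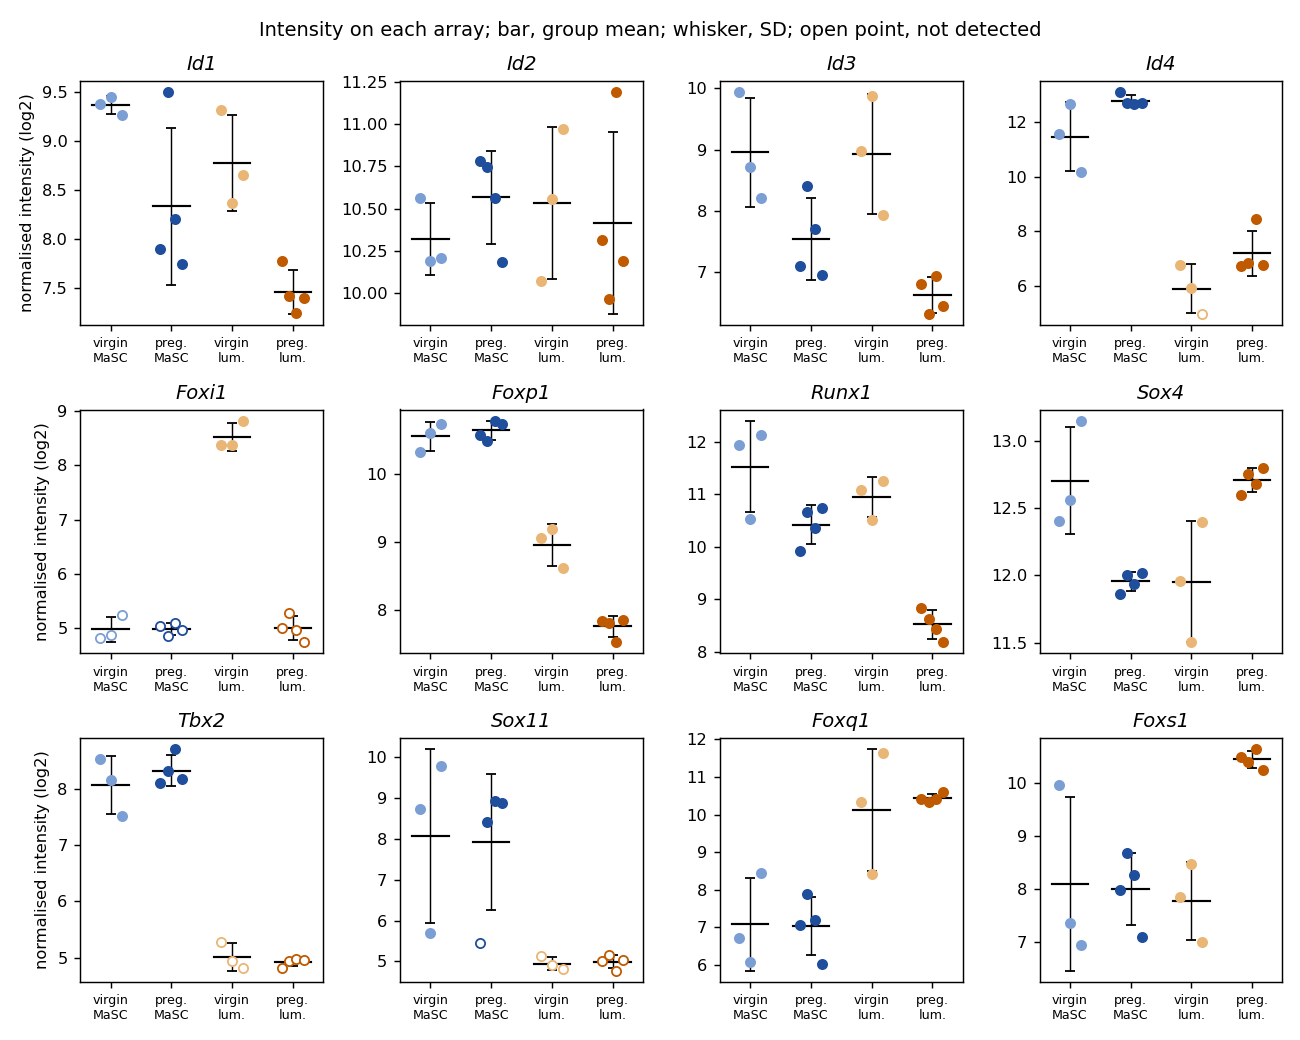
Normalised intensity (log2) of 12 factors on each of the 14 arrays in 4 groups; bars are group means, whiskers SDs, and open points arrays on which the probe was not detected. Foxi1 is detected on the 3 virgin luminal arrays only, Tbx2 on the 7 MaSC-enriched arrays only, and Foxp1 and Runx1 are lowest on the 4 pregnant luminal arrays.

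Runx1, the DNA-binding partner of the core binding factor Cbfb, fell in luminal cells in pregnancy. It was at 11.08, 10.52 and 11.26 in virgin and 8.83, 8.63, 8.44 and 8.18 in pregnant luminal arrays, and the groups did not overlap. The difference was -2.43, SE 0.35, adjusted p = 0.000139, or 5.40-fold. In MaSC-enriched cells it was at 11.94, 10.53 and 12.13 in virgin and 9.92, 10.66, 10.37 and 10.74 in pregnant mice, which overlapped, and the difference of -1.11 did not pass the test (adjusted p = 0.0898). Runx1 was then higher in MaSC-enriched than luminal cells in pregnant mice (1.90, SE 0.32, adjusted p = 0.000221) and not called in virgin mice (0.58, adjusted p = 0.275). The difference between the pregnancy effects, 1.32, was not called (adjusted p = 0.124). A second, dimmer Runx1 probe was detected on 3 virgin and 0 pregnant luminal arrays and also fell, by 1.38, but was not called between populations in pregnant mice. Cbfb fell in luminal cells as well (-0.74, SE 0.21, adjusted p = 0.0204). Runx3 was detected on no array.

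Gata2, known from blood and endothelium, was higher in pregnant than virgin luminal cells. It was at 5.57, 4.97 and 6.52 in virgin and 7.30, 7.67, 6.47 and 8.21 in pregnant luminal arrays, where the highest virgin array, the single one of 3 on which it was detected, lay just above the lowest pregnant one. On MaSC-enriched arrays it was at 5.88, 7.43 and 7.36 in virgin and 5.86, 7.10, 5.12 and 5.91 in pregnant mice, with overlap. The luminal difference was 1.73, SE 0.52, adjusted p = 0.0301 and the difference between populations in the pregnancy effect -2.62, SE 0.74, adjusted p = 0.043. The Gata2 luminal call was lost without virgin luminal replicate 1 or 2 or pregnant luminal replicate 1, 2 or 4 (adjusted p = 0.0535 to 0.14), and with median scaling, no filter or replicate number as a block (adjusted p = 0.056 to 0.0852). The call between the pregnancy effects was lost without virgin MaSC-enriched replicate 2 or 3, pregnant MaSC-enriched replicate 1, 3 or 4, virgin luminal replicate 1 or 2 or pregnant luminal replicate 1, 2 or 4 (adjusted p = 0.066 to 0.119), and with no background correction, median scaling, no filter, chip as a block or replicate number as a block (adjusted p = 0.0513 to 0.131). In pregnant mice Gata2 was lower in MaSC-enriched cells (-1.42, SE 0.48, adjusted p = 0.0301), a call lost without pregnant MaSC-enriched replicate 1, 3 or 4 or pregnant luminal replicate 1, 2 or 4 (adjusted p = 0.0516 to 0.103), and with cyclic loess, median scaling, no filter or chip as a block (adjusted p = 0.0565 to 0.0868). The mean of 4 leukocyte markers was 6.25, 5.79 and 5.66 in virgin and 6.38, 6.59, 7.02 and 7.08 in pregnant luminal arrays, with 1 of the 4, Cd52, called higher in pregnancy. The mean of 7 endothelial markers on MaSC-enriched arrays, 8.40, 10.21 and 9.60 in virgin and 9.36, 10.68, 9.32 and 8.69 in pregnant mice, was lowest in virgin replicate 1 and highest in pregnant replicate 2, as Gata2 was within each of these groups. The part of either cell type in the Gata2 differences was not tested.

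Gata6 was higher in MaSC-enriched cells of virgin mice (1.55, SE 0.43, adjusted p = 0.0125), where virgin MaSC-enriched replicate 3 and virgin luminal replicate 2 overlapped at 5.77 and 5.83. The Gata6 call was lost without virgin MaSC-enriched replicate 1 (adjusted p = 0.052). Among luminal arrays, the highest for Gata6, virgin replicate 2 and pregnant replicate 3 (5.99), also had the highest luminal means of 8 fibroblast markers (8.95 and 9.18). Virgin MaSC-enriched replicate 3, the lowest of its group for Gata6, was the lowest for fibroblast markers (8.09 against 8.91 and 9.29) and for 6 pericyte markers (7.14 against 8.07 and 9.10), and their part in the Gata6 difference was not tested. Of 9 tested partners of Runx and Gata factors, 3 rose in luminal cells in pregnancy, Lmo2 (1.98), Lmo4 (1.39) and the corepressor gene Tle4 (0.93), and 1 fell, Cbfb. None of the 9 was called in MaSC-enriched cells.

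Foxi1, the forkhead factor of acid-secreting cells in kidney and inner ear, was detected in virgin luminal cells alone. It was at 8.37, 8.38 and 8.83 on the 3 virgin luminal arrays and at 5.0, 5.28, 4.97 and 4.74 on the 4 pregnant ones. On MaSC-enriched arrays it was at 4.82, 4.86 and 5.25 in virgin and 5.03, 4.84, 5.09 and 4.96 in pregnant mice, not detected on any of these 7. The virgin luminal arrays stood above all others with no overlap. Foxi1 passed the detection filter through these 3 arrays alone, so its tests could come out only in this direction. The luminal fall was at least 6.54-fold (fitted difference -3.53, SE 0.20, adjusted p = 1.62e-08), where the bound takes as the lower level of each array the higher of its dimmest detected probe and the gene's own value. Relative to MaSC-enriched cells the virgin luminal level was at least 7.52-fold higher (adjusted p = 9.30e-09), and the pregnancy effect differed between populations (3.54, SE 0.28, adjusted p = 3.64e-06). Both other tested Foxi1 probes fell in luminal cells too, by 1.61 and 1.55.

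Foxp1, a forkhead repressor, was higher in MaSC-enriched cells and fell in luminal cells in pregnancy. It was at 10.32, 10.60 and 10.74 (virgin) and 10.57, 10.48, 10.78 and 10.74 (pregnant) in virgin and pregnant MaSC-enriched arrays, at 9.06, 9.18 and 8.61 in virgin luminal and at 7.83, 7.81, 7.52 and 7.86 in pregnant luminal arrays. The MaSC-enriched groups overlapped, and the 3 other pairs of groups that were compared did not. The population difference was 1.60 (adjusted p = 2.63e-05) in virgin and 2.89 (adjusted p = 9.93e-09) in pregnant mice. The luminal difference was -1.19, SE 0.20, adjusted p = 0.000449, and its contrast with the 0.09 of MaSC-enriched cells was called (1.28, SE 0.28, adjusted p = 0.00952). A second Foxp1 probe fell in luminal cells by 1.19 too but differed by 0.38 between the populations in virgin mice, which was not called.

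Foxq1 and Foxc1 were on the luminal side. Foxq1 was at 6.72, 6.07 and 8.46 (virgin) and 7.07, 7.89, 7.19 and 6.02 (pregnant) in virgin and pregnant MaSC-enriched arrays, against 10.32, 8.42 and 11.63 (virgin) and 10.42, 10.34, 10.41 and 10.60 (pregnant) in luminal arrays. In pregnant mice the groups were apart, and in virgin mice the lowest luminal array and the highest MaSC-enriched array overlapped at 8.42 and 8.46. The Foxq1 difference was -3.04 (adjusted p = 0.00366) in virgin and -3.40 (adjusted p = 0.000334) in pregnant mice, 8.25-fold and 10.6-fold. Leaving out virgin luminal replicate 2 or 3 or virgin MaSC-enriched replicate 3 moved the virgin difference to -3.90, -2.29 or -3.73. Foxc1, a mesoderm and neural crest factor, was at 7.59, 8.39, 8.38 and 8.23 in pregnant MaSC-enriched and 9.88, 9.88, 10.03 and 9.50 in pregnant luminal arrays, with a difference of -1.67, SE 0.34, adjusted p = 0.00118. In virgin mice the Foxc1 arrays overlapped, and the difference of -0.57 was not called (adjusted p = 0.324).

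Foxs1 and Foxo3 rose in luminal cells in pregnancy. Foxs1 was at 7.85, 8.48 and 7.0 in virgin and 10.50, 10.39, 10.64 and 10.24 in pregnant luminal arrays, and at 9.96, 7.37 and 6.95 (virgin) and 7.97, 8.68, 8.27 and 7.09 (pregnant) in MaSC-enriched arrays. The 4 pregnant luminal arrays lay above all other 10. The luminal difference was 2.67, SE 0.58, adjusted p = 0.00391, or 6.35-fold, and Foxs1 was lower in MaSC-enriched than luminal cells of pregnant mice (-2.44, SE 0.54, adjusted p = 0.00196). Its pregnancy effects in the 2 populations, -0.09 and 2.67, gave an interaction that missed the threshold (adjusted p = 0.0539). Foxs1 is known from pericytes; the mean of 6 pericyte markers was 6.82, 6.66 and 6.49 in virgin and 6.49, 6.43, 6.80 and 6.47 in pregnant luminal arrays, and none of the 6 was called in luminal cells with pregnancy. In MaSC-enriched arrays that mean was 9.10, 8.06 and 7.14 in virgin and 7.47, 8.65, 8.18 and 7.08 in pregnant mice, highest in virgin replicate 1 and pregnant replicate 2, which were also the highest of their groups for Foxs1. The part of these cells in the Foxs1 levels was not tested.

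Foxo factors are held out of the nucleus by PI3K-Akt signalling. Foxo3 was at 8.31, 8.12 and 8.25 in virgin and 9.70, 9.95, 8.86 and 9.92 in pregnant luminal arrays, with no overlap and a difference of 1.38, SE 0.29, adjusted p = 0.00351. On MaSC-enriched arrays it was at 8.52, 7.63 and 8.37 (virgin) and 8.41, 8.72, 9.20 and 9.05 (pregnant), and the difference of 0.67 was not called (adjusted p = 0.234). Foxo3 was lower in MaSC-enriched than luminal cells of pregnant mice (-0.76, adjusted p = 0.0367), a call lost without pregnant MaSC-enriched replicate 1 or 2 or pregnant luminal replicate 1, 2 or 4 (adjusted p = 0.0795 to 0.114), and with cyclic loess, no filter, chip as a block or replicate number as a block (adjusted p = 0.0542 to 0.141). Foxo1 was higher in MaSC-enriched cells of virgin mice (1.04, adjusted p = 0.0278), which was lost without virgin MaSC-enriched replicate 3 or virgin luminal replicate 1 or 2 (adjusted p = 0.061 to 0.141), and over the mean of its probes, with median scaling, no filter, array weights or chip as a block (adjusted p = 0.0536 to 0.152).

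Of 15 tested genes upstream of or targeted by Foxo factors, 2 rose and 4 fell in luminal cells and 0 were called in MaSC-enriched cells. The risers were Irs2 (1.17), an insulin receptor substrate, and the kinase gene Sgk3 (1.06). The 4 that fell were Bcl6 (-2.79), Gadd45a (-2.62), Bcl2l11 (-1.41) and the kinase gene Sgk1 (-0.98). The median over the 15 was 0.04 in luminal and 0.29 in MaSC-enriched cells.

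Foxa3, best known as a liver and endoderm factor, was on the MaSC-enriched side. It was at 8.33, 9.19 and 9.54 (virgin) and 9.30, 8.14, 8.39 and 8.09 (pregnant) in virgin and pregnant MaSC-enriched arrays and at 5.003, 4.94 and 6.88 (virgin) and 6.21, 5.43, 6.30 and 6.19 (pregnant) in luminal arrays, where it was detected on 1 of 3 and 3 of 4. The groups did not overlap in either state, with differences of 3.41 (adjusted p = 6.34e-05) and 2.45 (adjusted p = 0.000263), the former 4.05 without virgin luminal replicate 3. Foxn3 and Foxj2 were also higher in MaSC-enriched cells in both states. Foxn3 was at 11.35, 11.49 and 10.38 (virgin) and 10.51, 11.22, 10.76 and 10.76 (pregnant) against 9.67, 9.37 and 9.64 (virgin) and 10.26, 10.07, 10.07 and 9.91 (pregnant) in luminal arrays, with differences of 1.51 and 0.74. Its call in pregnant mice was lost without pregnant MaSC-enriched replicate 2 or pregnant luminal replicate 4 (adjusted p = 0.0546 to 0.0783). Foxj2 differed by 0.99 and 1.12, with no overlap in either state.

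Foxj3 fell in luminal cells in pregnancy by the brightest of its 6 tested probes, from 11.13, 11.24 and 10.84 to 9.86, 9.85, 10.04 and 10.42 (-1.03, SE 0.23, adjusted p = 0.00533). Of its 5 other tested probes, 2 were called lower, and the remaining 3 differed by -0.39, 0.05 and 0.14 and were not called. The call was lost over the mean of its probes (adjusted p = 0.058), at -0.47. Foxj3 was higher in MaSC-enriched cells of pregnant mice by the brightest probe (0.80, adjusted p = 0.00814), which was lost over the mean of its probes (adjusted p = 0.164), and its interaction of 1.14 (adjusted p = 0.0485) was lost without virgin MaSC-enriched replicate 1 or 3, pregnant MaSC-enriched replicate 1, 2, 3 or 4, virgin luminal replicate 1 or 2 or pregnant luminal replicate 1, 2 or 3 (adjusted p = 0.051 to 0.118), and over the mean of its probes, with median scaling, no filter, chip as a block or replicate number as a block (adjusted p = 0.054 to 0.252). Foxp4 was lower in MaSC-enriched cells of virgin mice (-0.84, adjusted p = 0.0122) by its brightest probe, whereas its 2 other tested probes differed by 0.09 and -0.18 and were not called; the call was lost over the mean of its probes (adjusted p = 0.354). Foxn2 was lower in MaSC-enriched cells of pregnant mice (-1.15, adjusted p = 0.0333), a call lost without pregnant MaSC-enriched replicate 1 or 3 or pregnant luminal replicate 2 or 4 (adjusted p = 0.0592 to 0.113), and with no background correction, cyclic loess or no filter (adjusted p = 0.0554 to 0.0882).

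Sox4, an HMG-box factor of developing and transforming epithelia, had opposite population differences in the 2 states. It was at 12.40, 12.56 and 13.15 in virgin MaSC-enriched and 11.96, 11.50 and 12.40 in virgin luminal arrays, and at 11.86, 12.003, 11.94 and 12.02 in pregnant MaSC-enriched and 12.60, 12.75, 12.68 and 12.80 in pregnant luminal arrays. Virgin MaSC-enriched and pregnant luminal arrays were high, and the other groups lower; within each state the populations did not overlap. The difference was 0.75 (adjusted p = 0.0295) in virgin and -0.76 (adjusted p = 0.00979) in pregnant mice. The rise in luminal cells was 0.76, SE 0.23, adjusted p = 0.029 and the -0.75 in MaSC-enriched cells was not called (adjusted p = 0.0795), and the contrast of these was called (-1.51, SE 0.32, adjusted p = 0.00895). The interaction was kept under all 26 alternatives. The luminal Sox4 call was lost without virgin luminal replicate 1 or 2 or pregnant luminal replicate 2, 3 or 4 (adjusted p = 0.0537 to 0.157), and with cyclic loess or median scaling (adjusted p = 0.0722 to 0.142). The virgin population call was lost without virgin MaSC-enriched replicate 3 or virgin luminal replicate 1 or 2 (adjusted p = 0.0722 to 0.146), and over the mean of its probes or with median scaling (adjusted p = 0.0584 to 0.406). A second Sox4 probe was lower in MaSC-enriched cells of pregnant mice by 0.85 and was not called elsewhere.

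Sox5 shared part of this pattern. It was at 9.68, 9.73 and 9.88 in virgin MaSC-enriched and 8.79, 8.39 and 9.01 in virgin luminal arrays, which did not overlap (1.03, SE 0.24, adjusted p = 0.00377). In luminal cells it rose to 9.35, 9.60, 9.15 and 9.50 (0.67, SE 0.22, adjusted p = 0.0454), a Sox5 call lost without pregnant MaSC-enriched replicate 2, 3 or 4, virgin luminal replicate 1 or 2 or pregnant luminal replicate 1, 2 or 4 (adjusted p = 0.0506 to 0.199), and with cyclic loess, median scaling, chip as a block or replicate number as a block (adjusted p = 0.0539 to 0.406). In pregnant mice the populations did not differ by the test (-0.04, 95% interval -0.48 to 0.40).

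Sox11, a factor of neurons and of the embryonic mammary gland, was detected on MaSC-enriched arrays alone. It was at 8.74, 5.69 and 9.79 in virgin and 5.46, 8.42, 8.93 and 8.89 in pregnant MaSC-enriched arrays, and at 4.77 to 5.16 on the 7 luminal arrays. Virgin replicate 2 and pregnant replicate 1, the latter not detected, lay near the luminal arrays and the other 5 far above them. Having passed the detection filter only through MaSC-enriched arrays, Sox11 could be called between populations only as higher there. It was at least 5.45-fold higher in MaSC-enriched cells of virgin mice (adjusted p = 0.0163) and at least 4.31-fold in pregnant mice (adjusted p = 0.0075). The virgin call was lost without virgin MaSC-enriched replicate 1 or 3 (adjusted p = 0.0571 to 0.0722), and with no filter (adjusted p = 0.0583). Without pregnant replicate 1 the fitted pregnant difference of 2.93 became 3.75.

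Sox14 showed the reverse. It was not detected on any MaSC-enriched array (4.78 to 5.37), and was at 5.51, 6.16 and 5.78 in virgin luminal arrays, detected on 2 of 3, and at 6.87, 6.88, 6.88 and 7.37 in pregnant ones. The pregnant luminal arrays lay above all others. Sox14 passed the detection filter only through luminal arrays, so between populations it could be called only as higher in luminal cells. The luminal rise was 1.18, SE 0.22, adjusted p = 0.00116, and the pregnant luminal level was at least 2.59-fold that of MaSC-enriched cells (adjusted p = 1.79e-06). The interaction of -1.16 (adjusted p = 0.0311) was lost without virgin MaSC-enriched replicate 3, pregnant MaSC-enriched replicate 2, 3 or 4, virgin luminal replicate 1 or 3 or pregnant luminal replicate 4 (adjusted p = 0.0509 to 0.0965), and with no background correction, cyclic loess or median scaling (adjusted p = 0.078 to 0.254). In virgin mice the luminal level was at least 1.15-fold that of MaSC-enriched cells (adjusted p = 0.02), a bound near 1, and the call was lost without virgin MaSC-enriched replicate 1 or virgin luminal replicate 2 (adjusted p = 0.0728 to 0.0958), and on the deposited values, with no background correction, an offset of 50 or array weights (adjusted p = 0.058 to 0.0701). Sox8, a relative of Sox9 and Sox10, was higher in MaSC-enriched cells in both states, at 6.83, 8.83 and 7.02 (virgin) and 8.20, 7.47, 7.36 and 7.98 (pregnant) against 6.07, 6.15 and 6.02 (virgin) and 6.15, 5.77, 6.65 and 6.80 (pregnant) in luminal arrays. Its differences were 1.48 (adjusted p = 0.018) and 1.41 (adjusted p = 0.0073), the virgin one lost without virgin MaSC-enriched replicate 2 or virgin luminal replicate 1 (adjusted p = 0.0504 to 0.0593), and with no filter (adjusted p = 0.0506).

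The SoxF factors Sox7, Sox17 and Sox18 are known from endothelial cells. Sox7 was at 8.05, 8.05 and 9.86 (virgin) and 7.70, 9.60, 8.56 and 8.04 (pregnant) in virgin and pregnant MaSC-enriched arrays and at 7.41, 5.41 and 6.92 (virgin) and 6.69, 7.29, 6.99 and 6.58 (pregnant) in luminal arrays. It was higher in MaSC-enriched cells in both states (2.07, adjusted p = 0.0129, and 1.59, adjusted p = 0.0191), with no overlap. The virgin Sox7 call was lost without virgin MaSC-enriched replicate 3 or virgin luminal replicate 2 (adjusted p = 0.0571 to 0.0721), and with array weights (adjusted p = 0.172). The pregnant one was lost without pregnant MaSC-enriched replicate 2 or pregnant luminal replicate 4 (adjusted p = 0.0515 to 0.0698), and with no filter (adjusted p = 0.0597). Of the other 2 tested Sox7 probes, 1 was called in pregnant mice (1.60) and 1 differed by 0.27 and -0.29 and was not called.

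Sox18 was at 6.51, 8.90 and 7.23 (virgin) and 7.56, 9.56, 7.43 and 7.36 (pregnant) in MaSC-enriched arrays, against 6.41, 5.58 and 5.69 (virgin) and 5.96, 6.13, 6.68 and 5.48 (pregnant) in luminal arrays. Its difference was called in pregnant mice (1.92, SE 0.52, adjusted p = 0.00868) and missed the threshold in virgin mice (1.65, adjusted p = 0.0528). Sox17 was called in neither (1.37, adjusted p = 0.0817, and 1.19, adjusted p = 0.0638).

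The mean of 7 endothelial markers shared its highest MaSC-enriched arrays with Sox17 and Sox18, and with Sox7 in pregnant mice alone. It was 8.40, 10.21 and 9.60 in virgin and 9.36, 10.68, 9.32 and 8.69 in pregnant MaSC-enriched arrays, and 8.49, 7.66 and 7.97 (virgin) and 7.45, 7.98, 8.54 and 8.07 (pregnant) in luminal arrays. Virgin replicate 2 and pregnant replicate 2 were the highest MaSC-enriched arrays for the markers, for Sox17 and for Sox18. Sox7 was highest in pregnant replicate 2 of its group (9.60), but among virgin arrays in replicate 3 (9.86), with replicate 2 at 8.05. Of the 7 markers, 7 were higher in MaSC-enriched cells of pregnant mice and 1, Esam, in virgin mice. Kdr was detected on no array. The sort removed cells with CD31, but its gene, Pecam1, is 1 of the 7 markers. Pecam1 was at 7.17, 9.05 and 8.91 in virgin and 8.23, 9.68, 8.54 and 7.76 in pregnant MaSC-enriched arrays. On luminal arrays it was at 7.55, 6.59 and 7.23 in virgin and 6.99, 7.36, 7.68 and 7.32 in pregnant mice. Of 6 pericyte markers, 4 were higher in MaSC-enriched cells in each state, with Rgs5 at 3.06 and 2.87. The part of these cells in the SoxF differences was not tested.

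**Figure D4:**
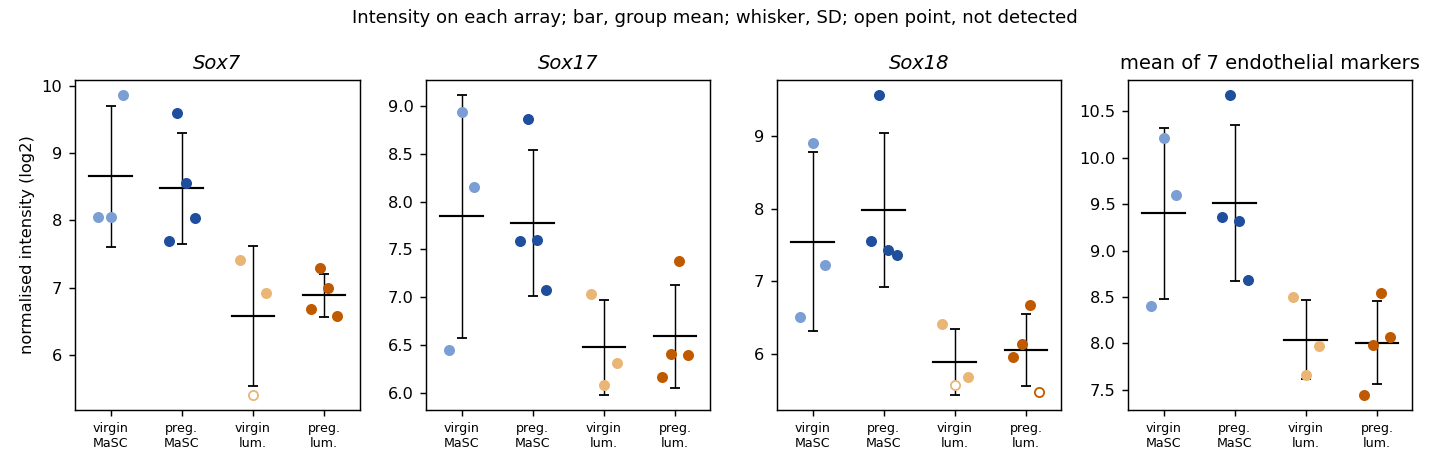
Normalised intensity (log2) of the 3 SoxF genes and the mean of 7 endothelial markers on each array in 4 groups; bars are group means, whiskers SDs, and open points arrays on which the probe was not detected. The second pregnant MaSC-enriched array is the highest of its group in all 4 panels, with 10.68 for the marker mean.

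Klf13 was the only factor of the 66 called with pregnancy in MaSC-enriched cells. It was at 12.04, 11.90 and 12.16 in virgin and 10.67, 10.71, 10.92 and 10.77 in pregnant MaSC-enriched arrays, with no overlap, and the difference was -1.27, SE 0.27, adjusted p = 0.0163, or 2.41-fold lower. The call was lost over the mean of its probes or with chip as a block (adjusted p = 0.0586 to 0.0826). Of 3 tested Foxk2 probes, a dimmer one was also lower in pregnancy there (-1.60), whereas the brightest Foxk2 probe was not called (0.16). In luminal arrays Klf13 was at 10.85, 10.50 and 11.67 (virgin) and 10.77, 10.80, 10.36 and 11.41 (pregnant), not called (-0.17, adjusted p = 0.74). The contrast of the populations was not called for Klf13 either (adjusted p = 0.109). Klf13 was higher in MaSC-enriched than luminal cells in virgin mice (1.03, adjusted p = 0.0158), a call lost without virgin luminal replicate 1 or 2 (adjusted p = 0.0605 to 0.0837).

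Klf4, a factor of epithelial differentiation and of reprogramming, fell in luminal cells in pregnancy. It was at 12.75, 12.59 and 12.42 in virgin and 11.66, 11.68, 11.40 and 11.80 in pregnant luminal arrays, and at 12.73, 12.76 and 12.21 (virgin) and 12.21, 12.43, 12.30 and 12.24 (pregnant) in MaSC-enriched arrays. The 4 pregnant luminal arrays were below all other 10. The difference was -0.95, SE 0.19, adjusted p = 0.00217, and Klf4 was higher in MaSC-enriched cells of pregnant mice (0.66, SE 0.18, adjusted p = 0.00748). Both other Klf4 probes pointed the same way in these comparisons, with 1 of them called in luminal cells and both between populations.

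Klf3, a repressor, was at 8.03, 5.70 and 8.60 in virgin and 5.31, 6.16, 6.39 and 5.24 in pregnant luminal arrays, which overlapped because virgin replicate 2 lay among the pregnant ones. It was called lower in pregnancy (-1.67, SE 0.52, adjusted p = 0.0335) and lower in virgin MaSC-enriched than virgin luminal cells (-1.67, adjusted p = 0.0326). The Klf3 pregnancy call was lost without virgin luminal replicate 1 or 3 or pregnant luminal replicate 1 or 4 (adjusted p = 0.0863 to 0.17), and with no filter or replicate number as a block (adjusted p = 0.0734 to 0.0924). The population call was lost without virgin MaSC-enriched replicate 1 or 2 or virgin luminal replicate 1 or 3 (adjusted p = 0.0504 to 0.15), and with no filter or chip as a block (adjusted p = 0.0522 to 0.0921). Within chip 3, which holds virgin luminal replicate 2, the pregnancy difference was 0.68.

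Klf2, Klf5, Klf6 and Klf9 were detected on all 14 arrays and called in no comparison. Klf6 ranged from 14.02 to 14.67 and Klf9 from 13.03 to 13.70, whereas Klf5, a factor of proliferating epithelium, ranged from 11.03 to 14.02 with overlap of every group. A second, dimmer Klf6 probe was lower in MaSC-enriched cells of virgin mice (-1.23). Klf2, which is induced by flow and stress, was at 11.82, 12.29 and 10.12 in virgin MaSC-enriched and 12.90, 13.21 and 11.15 in virgin luminal arrays, with replicate 3 lowest in both. The mean of 15 dissociation-stress genes was 12.06, 12.71 and 11.28 in virgin MaSC-enriched and 12.16, 12.47 and 11.63 in virgin luminal arrays, also lowest in replicate 3, and its part in the Klf2 level was not tested. None of the 15 was called with pregnancy in either population. Of 4 tested genes of the related Sp family, Sp1 fell in luminal cells (-0.67, adjusted p = 0.0295) and the other 3 were not called there.

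Of the 15 tested Hox genes, 3 were higher in MaSC-enriched cells in virgin mice and 6 in pregnant mice, and 0 were lower in either, beside 15.5% and 20.2% of all genes called higher. The median difference was 0.77 and 1.02, against -0.04 and -0.10 over all genes. These figures lean on the detection filter: Hoxa5, Hoxc9 and Hoxd4 passed it only through MaSC-enriched arrays and could stand out only on that side. Without them 2 and 5 of 12 were higher, with medians of 0.28 and 1.08. Detection was patchy: 8 Hox genes were detected on all 3 virgin MaSC-enriched arrays and 4 on all 3 virgin luminal arrays. With pregnancy, 0 of 15 were called in MaSC-enriched cells and 1 in luminal cells, beside 5.14% and 21.8% of all genes. In MaSC-enriched cells 2 had an unadjusted limma p below 0.05, a threshold at which no share of all genes was computed.

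Hoxa5, at 7.24, 7.25 and 6.22 in virgin MaSC-enriched arrays, was not detected on any luminal array (4.79 to 5.63). It was at least 2.42-fold higher in MaSC-enriched cells of virgin mice (adjusted p = 0.00315). In pregnant MaSC-enriched arrays it was at 6.52, 6.62, 5.88 and 4.98, which overlapped the luminal ones, and its difference of 0.83 missed the threshold (adjusted p = 0.0668). Hoxa7 and Hoxd8 were higher in MaSC-enriched cells in both states. Hoxa7 was at 7.51, 7.96 and 6.43 (virgin) and 6.76, 7.39, 6.67 and 6.66 (pregnant) against 6.24, 6.49 and 5.31 (virgin) and 5.72, 5.50, 5.99 and 5.85 (pregnant) (1.28, adjusted p = 0.0168, and 1.11, adjusted p = 0.0125), with overlap in virgin mice and the virgin call lost without virgin MaSC-enriched replicate 1 or 2 or virgin luminal replicate 3 (adjusted p = 0.0527 to 0.0823), and with median scaling (adjusted p = 0.0657). Hoxd8 differed by 1.52 (adjusted p = 0.04996) and 1.70 (adjusted p = 0.0101), with overlap in both states, and its virgin call was lost under 15 of 26 alternatives, without virgin MaSC-enriched replicate 1 or 2, pregnant MaSC-enriched replicate 1 or 3, virgin luminal replicate 2 or 3 or pregnant luminal replicate 1, 2 or 4 (adjusted p = 0.0543 to 0.173), and on the deposited values, with no background correction, an offset of 50, median scaling, no filter or array weights (adjusted p = 0.0787 to 0.333).

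Some arrays that were high for Hox genes were also high for stromal markers, and others were not. Pregnant MaSC-enriched replicate 2 was the highest array of its group for Hoxa7 (7.39), Hoxd8 (9.07), Hoxd9 (7.70) and Hoxd4 (7.13), and also for 8 fibroblast markers (9.49, 9.86, 9.21 and 9.03 in the 4 arrays) and 6 pericyte markers (7.47, 8.65, 8.18 and 7.08). Pregnant luminal replicate 3 was the highest luminal array for Hoxd8 (7.01) and for the fibroblast mean (9.18). In virgin MaSC-enriched arrays Hoxa7, Hoxd8, Hoxd9 and Hoxd4 were highest in replicate 2, whereas both marker means were highest in replicate 1. Replicate 3 was lowest there for these genes and for both means. Among virgin luminal arrays Hoxd8 was highest in replicate 1 and the fibroblast mean in replicate 2. Among pregnant luminal arrays Hoxa7 was highest in replicate 3, but Hoxd9 in replicate 2. The part of stromal cells in the Hox differences was not tested.

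Hoxb2 fell in luminal cells in pregnancy. It was at 8.64, 9.68 and 7.61 in virgin and 6.91, 6.69, 7.21 and 7.07 in pregnant luminal arrays, and at 7.80, 8.56 and 6.78 (virgin) and 8.33, 8.41, 8.09 and 8.40 (pregnant) in MaSC-enriched arrays. The pregnant luminal arrays were below the virgin ones and below all pregnant MaSC-enriched arrays. The luminal difference was -1.68, SE 0.42, adjusted p = 0.0106, lost without virgin luminal replicate 2 (adjusted p = 0.0675). The difference between populations was called in pregnant mice (1.34, SE 0.39, adjusted p = 0.0127), as was the interaction (2.27, SE 0.60, adjusted p = 0.03), the latter lost without virgin MaSC-enriched replicate 1 or 3, pregnant MaSC-enriched replicate 1, 2 or 4, virgin luminal replicate 1 or 2 or pregnant luminal replicate 1 or 2 (adjusted p = 0.0508 to 0.0739), and with no filter (adjusted p = 0.0808). Its neighbour Hoxb4 was higher in MaSC-enriched cells of pregnant mice (1.51, adjusted p = 0.0488), a call lost without virgin MaSC-enriched replicate 1, pregnant MaSC-enriched replicate 1, 2 or 4, virgin luminal replicate 1 or pregnant luminal replicate 1, 2, 3 or 4 (adjusted p = 0.0551 to 0.127), and with no background correction, median scaling or no filter (adjusted p = 0.0524 to 0.132).

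Of the group 9 genes, Hoxd9 was at 6.45, 7.70, 6.64 and 6.09 in pregnant MaSC-enriched and 4.85, 6.01, 5.70 and 5.64 in pregnant luminal arrays, without overlap (1.17, SE 0.32, adjusted p = 0.00817), and its second probe was called in the same direction (1.13). In virgin mice its difference of 0.78 was not called (adjusted p = 0.13). Hoxc9 was called in no comparison, Hoxa9 was detected on 1 array and Hoxb9 on none. Hoxd4, detected on no luminal array, was at least 1.28-fold higher in pregnant MaSC-enriched cells (adjusted p = 0.0467). The Hoxd4 call was lost under 16 of 26 alternatives, without virgin MaSC-enriched replicate 1, pregnant MaSC-enriched replicate 1, 2 or 3, virgin luminal replicate 1, 2 or 3 or pregnant luminal replicate 1, 2 or 3 (adjusted p = 0.0524 to 0.159), and on the deposited values, with no background correction, an offset of 50, median scaling, no filter or chip as a block (adjusted p = 0.0562 to 0.114), and within chip 4 the difference was -0.26. Hoxc6 was at 8.67, 8.80 and 4.86 (virgin) and 6.93, 7.28, 6.70 and 5.84 (pregnant) in MaSC-enriched and 5.40, 7.03 and 4.76 (virgin) and 5.18, 4.73, 6.32 and 5.22 (pregnant) in luminal arrays and was called in no comparison. The 2 highest luminal arrays for Hoxc6, virgin replicate 2 and pregnant replicate 3, were also those with the highest mean of 8 fibroblast markers, 8.95 and 9.18, and the part of this in its level was not tested. Hoxd10 was detected on 2 arrays and Hoxc8 on none.

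**Figure D5:**
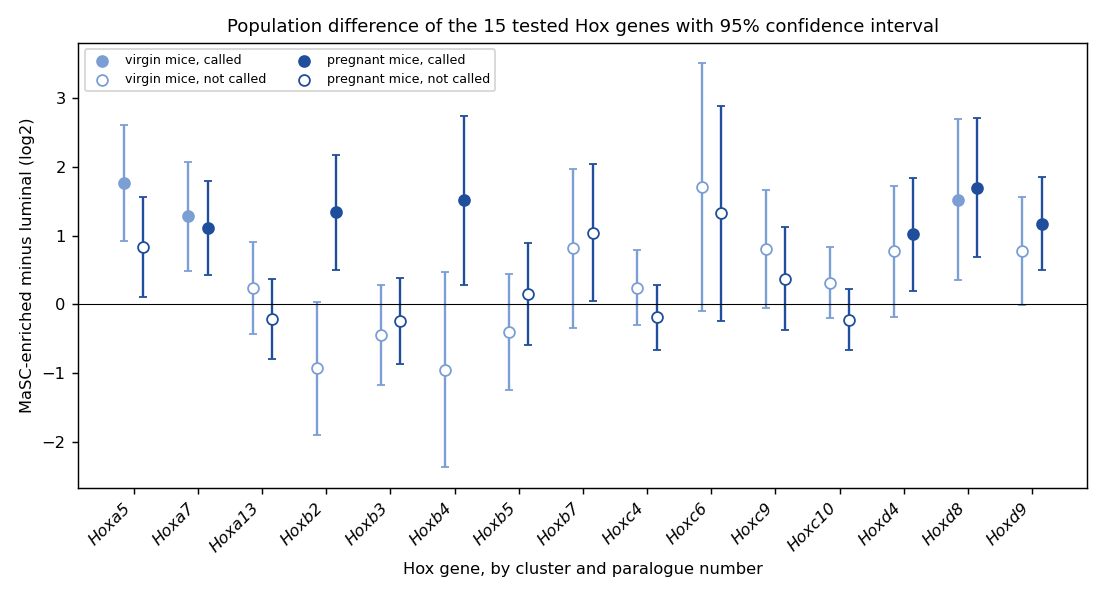
Difference between MaSC-enriched and luminal cells (log2) of the 15 tested Hox genes in virgin and pregnant mice, with 95% confidence intervals; filled points have an adjusted p below 0.05. The 9 filled points all lie above 0, and Hoxb2 and Hoxb4 lie below 0 in virgin and above 0 in pregnant mice.

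Hox proteins bind DNA with TALE homeodomain cofactors of the Pbx, Meis and Pknox families. Of 7 tested cofactor genes, Pknox2 was detected on no luminal array. It passed the detection filter only through MaSC-enriched arrays, so between populations it could be called only as higher there. It was at least 14.3-fold higher in MaSC-enriched cells of virgin mice (adjusted p = 4.08e-09) and at least 10.4-fold in pregnant mice (adjusted p = 7.05e-10). Meis1 fell in luminal cells in pregnancy (-3.06, SE 0.37, adjusted p = 3.26e-05), the only cofactor called there, and its contrast with MaSC-enriched cells was called (3.19, SE 0.53, adjusted p = 0.0015). It was lower in MaSC-enriched than luminal cells in virgin mice (-1.33, adjusted p = 0.0203) and higher in pregnant mice (1.86, adjusted p = 0.000493). Pbx3, not detected on any luminal array, also passed the filter only through MaSC-enriched arrays. It was at least 1.32-fold higher in MaSC-enriched cells of pregnant mice (adjusted p = 0.00524).

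Polycomb and trithorax proteins hold Hox loci silent or active. Of 20 tested genes of these groups, 0 were called with pregnancy in MaSC-enriched cells and 2 fell in luminal cells, Cbx7 (-1.23, adjusted p = 0.0341) and Phc3 (-1.15, adjusted p = 0.00597). In virgin mice 1 was higher and 2 lower in MaSC-enriched cells, Kmt2a (0.74) and Bmi1 (-1.69) with Phc3 (-0.85). In pregnant mice 3 were higher, Cbx6 (1.12), Kmt2a (0.72) and Phc1 (0.54). The list medians lay between -0.16 and 0.08.

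Tbx2, a T-box repressor related to Tbx3, separated the populations in both states. It was at 8.54, 8.15 and 7.53 in virgin and 8.10, 8.31, 8.71 and 8.18 in pregnant MaSC-enriched arrays, and at 4.81 to 5.29, not detected, on the 7 luminal arrays. Tbx2 passed the detection filter only through MaSC-enriched arrays, so between populations it could be called only as higher there. It was at least 5.44-fold higher in MaSC-enriched cells of virgin mice (adjusted p = 2.55e-07) and at least 5.69-fold in pregnant mice (adjusted p = 1.36e-08). Pregnancy left it without a call in either population (0.25 and -0.09). The one other tested T-box gene, Tbx6, was called in no comparison.

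Of the 136 genes 70 were not tested: 54 were detected on no array and 16 on 1 or 2 arrays. The share tested differed by family, with 15 of 38 Hox, 19 of 41 Fox, 11 of 17 Sox, 11 of 17 Klf, 2 of 12 Tbx, 3 of 5 Gata, 1 of 2 Runx and 4 of 4 Id genes. Runx2 had no probe named for it, and Sox6 and Klf10 were detected on no array. Of the 66 tested genes, 33 were detected on all 14 arrays, 37 were called in at least 1 comparison and 29 in none. The share of all tested genes called in at least 1 comparison was not computed, so the 37 cannot be set against it. Where a called gene had further tested probes, these had the direction of the call in 47 of 57 pairs of a probe and a comparison, were called in the same direction in 25, and were called in the opposite direction in 0.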

How the data were processed

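RNA of 14 samples was measured on 1-colour Illumina bead arrays on 4 chips. The deposited intensity values were neither background corrected nor scaled between arrays, per the file headers and the values. The deposited detection p-value of each probe ranks it among negative controls, per the file headers. The deposited log2 values of the series were background corrected and quantile normalised by the authors, judged from the values: an offset of 50 gave values within 0.0719 of them. BeadStudio and limma are named in the submitters' processing notes, and their versions are not given in the sources used here.

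Here intensities were corrected with limma 3.58.1 (R 4.3.3) by normexp (offset 16), the background being estimated through the detection p-values. They were then put on the log2 scale, and the log2 values were quantile normalised. Of 45281 probes, 20906 (46.17%) were tested. A limma fit of 4 group means (10 residual and 4.74 prior degrees of freedom) gave 5 two-sided comparisons: pregnancy in each population, MaSC-enriched minus luminal cells within virgin and within pregnant mice, and their interaction (pregnancy difference of MaSC-enriched minus that of luminal cells). Of several tested probes of a gene, the one brightest on average stands for it. Where a gene was detected on no array of the dimmer group, the fold is a lower bound.

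Every factor called in any comparison is named, with values by array for the largest called differences without overlap, beside a set of factors named whatever their values. Of the partner and marker genes that were called, some are named, up to 4 of a list per comparison. Others that were called are not named, whatever the size of their difference. The genes, lists and tests were chosen with earlier results of these data known. Alternatives changed background, scaling, filter, probe choice, weights, chip or pool blocks, and left out each array. In simulated luminal comparisons over 20906 probes, 35 of 100 shifts of 1 (log2) and 90 of 100 shifts of 2 were recovered. No other probe was shifted there, whereas 2035 probes were called higher and 2052 lower in the real luminal comparison. The adjusted p depends on how many probes differ, so these shares do not measure how many such shifts the reported tests recover. Precision is limited by the number of arrays, which carry no sequencing depth.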

Additional observations from a re-analysis of the deposited data

Results flagged for a closer look

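Among the called factors, 9 groups of 4 arrays of the 74 examined held 1 array far from the other 3 by Dixon's test, which chance alone marks in about 1 group in 20. Pregnant luminal replicate 3 was the array in 3 of these. It was high for Id4 (8.443, others 6.718 to 6.836) and Gata6 (5.993, others 4.879 to 4.95), and low for Foxp1 (7.523, others 7.811 to 7.856). Pregnant luminal replicate 2 was low for Foxa3 (5.428, others 6.19 to 6.298), and replicate 4 was high for Sox14 (7.371, others 6.868 to 6.884). Pregnant MaSC-enriched replicate 2 was high for Sox18 (9.564, others 7.363 to 7.558) and Hoxa7 (7.39, others 6.664 to 6.765). Pregnant MaSC-enriched replicate 1 was low for Sox11 (5.462, others 8.419 to 8.935) and high for Id4 (13.11, others 12.67 to 12.71).

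The pregnancy difference differed between MaSC-enriched and luminal cells, by the test of the interaction, for 7 factors. It was higher in MaSC-enriched cells for Foxi1 (3.54, adjusted p = 3.64e-06), Hoxb2 (2.27, adjusted p = 0.03), Foxp1 (1.28, adjusted p = 0.00952) and Foxj3 (1.14, adjusted p = 0.0485). It was lower there for Gata2 (-2.62, adjusted p = 0.043), Sox4 (-1.51, adjusted p = 0.00895) and Sox14 (-1.16, adjusted p = 0.0311). Of these, Foxi1, Foxp1 and Sox4 remained called under all 26 alternatives. Foxi1 passed the detection filter only through virgin luminal arrays, where it was high.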

How the results depend on the processing

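Of the calls in pregnancy in luminal cells, 8 of 15 were kept under all 26 alternatives, as were 10 of 22 and 19 of 28 between populations in virgin and pregnant mice, 3 of 7 in the interaction and 0 of 1 in MaSC-enriched cells. Leaving out 1 array moved the counts of factors called higher and lower to 0 to 3 and 1 to 3 (pregnancy, MaSC-enriched), 3 to 7 and 7 to 10 (pregnancy, luminal), 12 to 18 and 3 to 7 (populations, virgin), 15 to 24 and 5 to 8 (populations, pregnant), and 2 to 6 and 1 to 5 (interaction). The 3 rises in MaSC-enriched cells appeared without virgin replicate 2. In that comparison, 2 factors fell with no background correction, 3 with chip as a block and 0 over the mean of a gene's probes. In luminal cells median scaling gave 3 rises, and array weights 12 rises and 15 falls. Cyclic loess gave 5 factors lower in MaSC-enriched cells of pregnant mice. For the interaction, no filter gave 2 higher; an offset of 50 and the deposited values gave 5 lower each, median scaling 1 and array weights 6. Median scaling moved the median of all genes to -0.163 in luminal pregnancy and 0.104 in the interaction. Within chips 2 called differences changed sign, Klf3 in luminal pregnancy (0.6844, chip 3) and Hoxd4 between populations in pregnant mice (-0.2631, chip 4); chip 2 held 1 array. The labels do not say that equal replicate numbers share a pool. Deviations of same-numbered arrays of the 2 populations correlated by 0.0478, 0.424 and 0.38 in virgin mice and by -0.168 to 0.092 in pregnant mice, and the numbers were not taken as pairs. A replicate block of pools gave 5 factors lower in the interaction, 3 without it. The cause of these moves was not tested.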

Other observations

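Foxp3, known as the factor of regulatory T cells, was chosen for mention after its values were seen. Its brightest probe was detected on all 14 arrays, from 9.51 to 10.31, while Ptprc was detected on none, the T cell marker Cd3e ran from 5.509 to 8.341 and Lyz2, of myeloid cells, from 6.451 to 8.996. The part of such cells in the Foxp3 level was not tested. It was called in no comparison, and 1 of its 4 probes was tested.

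Hoxb4 was at 8.24, 10.21 and 6.84 in virgin MaSC-enriched and 9.38, 10.25 and 8.52 in virgin luminal arrays, with replicate 3 the lowest in both. This was also chosen after the values were seen. Both arrays sat on chip 4, with pregnant MaSC-enriched and pregnant luminal replicate 4, where Hoxb4 was at 9.01 and 8.28.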
